A study of Mus musculus with 38 samples.

Results

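Mouse embryonic stem (ES) cell lines labelled as knockouts of 2 different chromatin remodellers, Snf2h and Ino80, were compared directly in RNA-seq of a single batch. The comparison took 4 of the 38 libraries of the series: 2 of the Snf2hko line and 2 of the Ino80ko line. A further 2 libraries of wild-type cells from the same batch showed which line had left the wild-type level. All 6 libraries were of 129S6/SvEvTac strain, grown on gelatin in medium with serum and leukemia inhibitory factor, and kept in the vehicle DMSO for 24 h. The samples were selected by their labels alone, and the 1562 genes annotated to chromosome Y were left out. The labels do not say how either line was made or how many clones it stands for, so an effect of the lost remodeller and a property of 1 line cannot be told apart. The replicates are called biological, but the cultures and days behind them are not given. The p-values therefore measure the spread between these libraries, part of which may be technical.

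SNF2H, encoded by Smarca5, is the ATPase of most ISWI complexes, which slide and space nucleosomes and are known to help CTCF occupy its sites. INO80 is the ATPase of a large complex of the same name that moves nucleosomes, acts at promoters and origins of replication, and has been tied to the pluripotency network of ES cells. Both are general remodellers, and the comparison asks which transcripts differ between cells that lack one and cells that lack the other.

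The 6 libraries held 39.2 to 44.5 M counts and 15461 to 16348 detected genes each. In all, 13114 genes passed the filter on low counts and were tested, with a biological coefficient of variation of 6.63%. For 8465 well-expressed genes the 95% interval of a difference between the lines spanned a median of ± 0.184 on the log2 scale. Expression levels are CPM (counts over the scaled total of a library), given for each library in the order replicate 1, replicate 2 for the knockout lines and 3, 4 for wild type. Differences are log2 values ± standard error. The call of a gene rests on a Benjamini-Hochberg adjusted p below 0.05 in edgeR.

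Neither targeted gene could check the labels. Smarca5 had 0 counts in every library, wild type included, as did Smarca4, the ATPase gene BRG1 of SWI/SNF. These genes are among the 6709 of 21897 protein-coding genes listed at 0 in every library, so their zeros say nothing of expression. Ino80 (chr2:119373042-119477687, minus strand, GRCm38) was at 170 and 170 CPM in wild type, 124 and 119 in Ino80ko, and 126 and 121 in Snf2hko. Both lines thus lay below wild type, by 0.48 (Ino80ko, adjusted p = 1.4e-05) and 0.46 (Snf2hko, adjusted p = 1.3e-05) on the log2 scale, and the difference between them was not called (0.02 ± 0.07, adjusted p = 0.837). Whether these reads come from an altered transcript was not tested, and "Snf2hko" and "Ino80ko" are used throughout as the labels of the libraries.

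The ATPase gene Smarca2 differed between the lines. Smarca2 (chr19:26605050-26778322, plus strand) encodes BRM, the alternative ATPase of SWI/SNF. It was at 45.4 and 43.8 CPM in Snf2hko, 4.20 and 4.31 in Ino80ko, and 10.4 and 10.8 in wild type. Snf2hko was higher than Ino80ko by 3.39 ± 0.11 (adjusted p = 8.16e-15), having risen from wild type by 2.07 while Ino80ko fell by 1.32. Smarca1, the gene of the other ISWI ATPase SNF2L, was at 75.8 and 82.4 CPM in wild type, 54.5 and 52.6 in Snf2hko, and 35.9 and 38.0 in Ino80ko. It was lower than wild type in both lines and higher in Snf2hko than in Ino80ko by 0.53 ± 0.07 (adjusted p = 3.59e-06).

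Across the transcriptome, 7524 genes (57.4% of those tested) were called between the lines, 3816 higher in Snf2hko (29.1%) and 3708 lower (28.3%). A change of at least 2-fold was called for 2488 genes (19.0%), of which 1562 were higher in Snf2hko (11.9%) and 926 lower (7.06%). The asymmetry grew with the size of the change. At 4-fold or more 753 genes were higher and 248 lower, and at 16-fold or more 152 were higher and 40 lower. Both Snf2hko libraries lay outside the range of both Ino80ko libraries for 80.9% of all genes tested, so the absence of overlap alone sets few genes apart.

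Set against wild type, 7412 genes (56.5%) were called in Snf2hko and 5899 (45.0%) in Ino80ko. Of the 1562 genes at least 2-fold higher in Snf2hko, 568 were called against wild type only in Snf2hko, 239 only in Ino80ko, and 504 in both lines in opposite directions. Another 127 had left wild type in 1 direction in both lines, and 124 were called in neither. The 926 genes lower in Snf2hko divided into 370 called only in Snf2hko, 138 only in Ino80ko, 186 in opposite directions, 150 in 1 direction and 82 in neither. A departure to opposite sides of wild type thus made up 32.3% of the higher and 20.1% of the lower genes. The comparisons share the 2 wild-type libraries, so these are counts with no test.

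**Figure D1:**
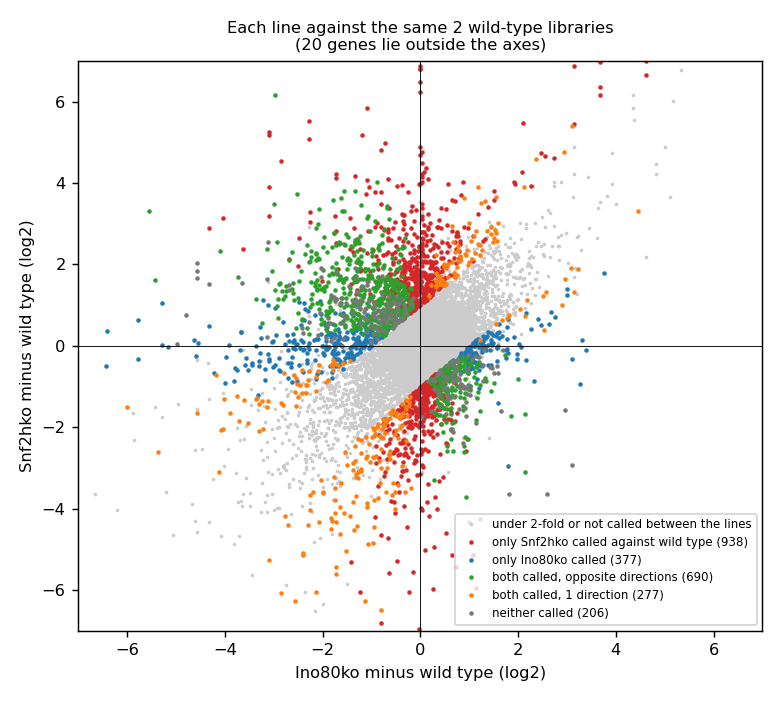
Each point is 1 of the 13114 genes tested, with the log2 difference of Ino80ko from wild type on the horizontal axis and that of Snf2hko from wild type on the vertical axis, and colours giving the class of the 2488 genes called with a 2-fold change between the lines. Both axes use the same 2 wild-type libraries. The green cloud at the upper left (higher in Snf2hko, lower in Ino80ko) is denser than the one at the lower right: 504 genes against 186.

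Among called genes with a mean log2 CPM of at least 2, the 15 largest differences toward Snf2hko were all of this opposite kind. Ranking by the difference between the lines favours genes displaced to both sides of wild type. Genes below that level had larger differences, some opposite (Nnat, 12.43) and some not (Lox, 6.93, called against wild type only in Snf2hko). Aqp8, a water channel, was at 33.6 and 41.0 CPM in Snf2hko, 0.661 and 1.12 in Ino80ko, and 2.39 and 3.82 in wild type (5.37 ± 0.26, adjusted p = 1.09e-11). Amn encodes amnionless, the membrane anchor of the endocytic receptor that visceral endoderm uses to take up nutrients. Its level was 56.1 and 61.4 CPM in Snf2hko, 1.53 and 1.79 in Ino80ko, and 4.17 and 4.19 in wild type (5.14 ± 0.15, adjusted p = 1.07e-15). Both genes show the same order, with Ino80ko lowest, wild type between and Snf2hko far above.

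Srgn, the gene of the proteoglycan serglycin, had the smallest error of this group, with 331 and 342 CPM in Snf2hko, 17.95 and 16.82 in Ino80ko and 52.0 and 48.3 in wild type (4.27 ± 0.08, adjusted p = 1.17e-17). Klb encodes beta-Klotho, a co-receptor for endocrine FGFs. Its 2 Snf2hko libraries were at 67.6 and 68.0 CPM, against 2.90 and 2.43 in Ino80ko and 6.53 and 5.83 in wild type (4.67 ± 0.11). Nxf7, an X-linked member of the nuclear RNA export factor family, was at 104 and 109 CPM in Snf2hko, 4.25 and 3.34 in Ino80ko and 26.0 and 23.0 in wild type (4.81 ± 0.14). For Nxf7 the fall in Ino80ko (2.69 below wild type) exceeded the rise in Snf2hko (2.12).

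Csf1, the gene of macrophage colony-stimulating factor, and Glipr1 had the same weighting. Csf1 was at 25.97 and 24.03 CPM in Snf2hko, 1.02 and 1.31 in Ino80ko and 9.25 and 8.26 in wild type, a log2 value of 1.51 above wild type in one line and of -2.90 in the other. The remaining members of the 15 were Pga5 (a pepsinogen), Nostrin, Plbd1, Glipr1, Adora1 (the adenosine A1 receptor), Rab3il1, Tfec (a MiT-family transcription factor), Hkdc1 (a hexokinase-domain protein) and Dram1 (a lysosomal autophagy regulator). Their differences ran from 4.20 for Dram1 to 4.92 for Pga5, with Snf2hko above and Ino80ko below wild type in each.

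The 15 largest differences in the other direction, by the same rule, were mixed. Against wild type 6 genes were called only in Snf2hko, 5 in both lines in opposite directions, 3 in both lines in 1 direction, and Lars2 in neither. Miip, the migration and invasion inhibitory protein gene, was at 1.81 and 2.05 CPM in Snf2hko, 40.3 and 39.3 in Ino80ko, and 34.9 and 35.7 in wild type (-4.36 ± 0.12, adjusted p = 4.86e-16). Atxn1l encodes a partner of the transcriptional repressor Capicua. It was at 4.42 and 4.81 CPM in Snf2hko, 73.8 and 72.9 in Ino80ko and 74.7 and 71.7 in wild type (-3.99 ± 0.09, adjusted p = 8.45e-17). Ino80ko differed from wild type by 0.00 for Atxn1l (adjusted p = 0.98) and by 0.17 for Miip (adjusted p = 0.12).

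Ttll4, a tubulin polyglutamylase gene, was at 51.5 and 49.0 CPM in Snf2hko, 336 and 341 in Ino80ko and 368 and 370 in wild type (-2.75 ± 0.07, adjusted p = 2.87e-16). Tpp1, the lysosomal tripeptidyl peptidase gene, was at 7.35 and 6.10 CPM in Snf2hko, against 57.4 and 53.1 in Ino80ko and 52.1 and 53.9 in wild type (-3.04 ± 0.10). Psma8 and Gpat2, a proteasome subunit and an acyltransferase known from the male germline, were likewise called against wild type only in Snf2hko, with differences between the lines of -3.13 ± 0.13 and -2.97 ± 0.16. Cyct, the testis cytochrome c gene, fell in both lines, to 1.21 and 1.13 CPM in Snf2hko and 11.9 and 14.2 in Ino80ko from 19.7 and 17.9 in wild type.

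Zinc finger genes recur here. Zfp334 was at 3.84 and 4.35 CPM in Snf2hko, 46.5 and 51.4 in Ino80ko and 39.6 and 41.6 in wild type (-3.58 ± 0.11), and Zfp507 at 8.92 and 9.51, 90.4 and 88.7, and 105 and 101 CPM in the same order (-3.28 ± 0.09). Both were called against wild type in Ino80ko as well, Zfp334 upward by 0.27 and Zfp507 downward (-0.20). Zkscan7, Rgs9, Helz2 and Rbfa, like Zfp334, lay above wild type in Ino80ko and below it in Snf2hko. Rgs9, a G protein regulator gene, was at 1.42 and 1.33 CPM in Snf2hko, 15.5 and 15.9 in Ino80ko and 9.38 and 7.55 in wild type (-3.51 ± 0.15). Slc4a5, a bicarbonate transporter gene, fell in both lines, to 0.892 and 0.849 CPM in Snf2hko and 13.3 and 12.2 in Ino80ko from 26.6 and 23.4 in wild type. Among all 373 tested genes whose symbols begin with Zfp, Zkscan, Zscan, Zik or Zbtb, a set chosen after these values were seen, 191 were lower in Snf2hko (28.3% of all genes were) and 47 higher (29.1% of all genes were), with a median of -0.28 against 0.00 over all genes. Lars2, the mitochondrial leucyl-tRNA synthetase gene, also met the rule, but its libraries disagreed within each group. It was at 501 and 3202 CPM in Ino80ko, 57.9 and 102 in Snf2hko and 145 and 329 in wild type, and its call (-4.54 ± 1.48, adjusted p = 0.0386) was lost when any Snf2hko library, Ino80ko replicate 2 or any wild-type library was left out (adjusted p = 0.0547 to 0.177).

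**Figure D2:**
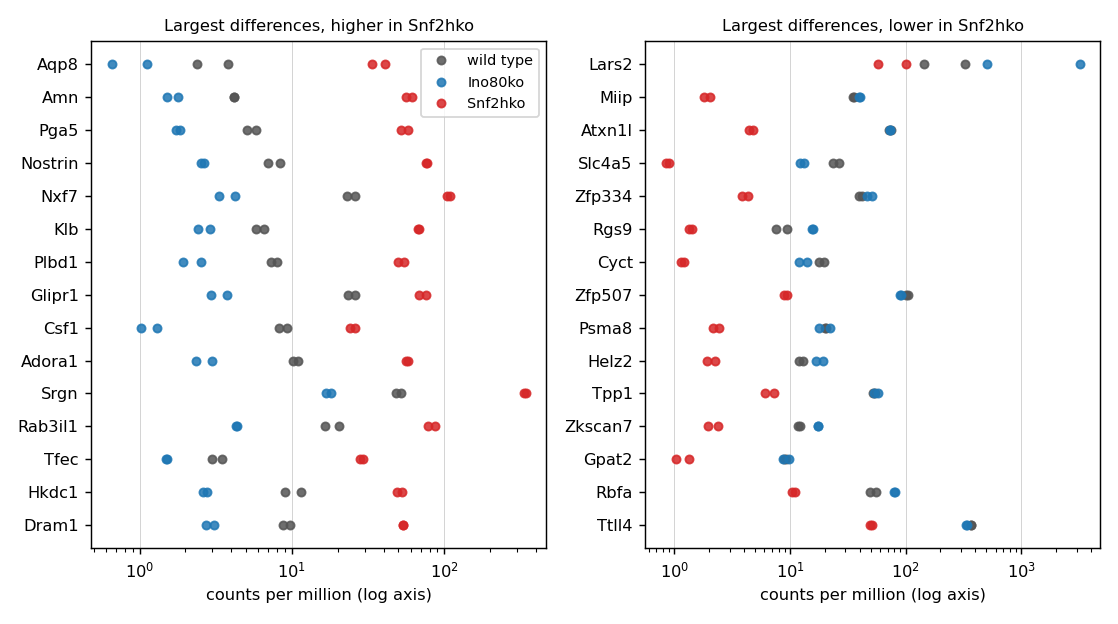
Each row is a gene and each dot 1 library, with CPM on a log axis. Shown are the 15 largest differences toward Snf2hko (left) and the 15 largest toward Ino80ko (right). All had a mean log2 CPM of at least 2. On the left the 3 groups separate with wild type in the middle, as for Amn at 1.53 to 1.79, 4.17 to 4.19 and 56.1 to 61.4 CPM. On the right Snf2hko is at the low end in every row, Ino80ko lies beside wild type in rows such as Miip and apart from it in rows such as Rgs9 and Slc4a5, and Lars2 has widely spaced dots.

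Promoter sequences were also compared between the higher and the lower genes. RefSeq promoters (GRCm38.p6) were matched for 9663 of the 13114 tested genes, and the 250 bases before the start were searched. The median number of CpG dinucleotides was 14 over all matched genes and 10 both among 1137 matched genes at least 2-fold higher in Snf2hko and among 652 lower. The ETS-type motif CCGGAAG, on either strand, was present in 12.7% of all matched promoters, 4.13% of those of the higher genes and 8.74% of those of the lower genes. The TATAAA motif, on either strand, was in 7.06% of all, 10.6% of the higher and 8.90% of the lower set. A GATA-type motif, AGATAA on either strand, was in 6.61%, 8.71% and 8.44%. In the 381 matched higher genes with the lines on opposite sides of wild type, AGATAA was in 5.77% and the CpG median was 14. In the 11 matched genes of the primitive and visceral endoderm list described below, AGATAA was in 0 and the CpG median was 7. These shares are descriptions of letters in a window. The following promoters, of 2 genes high in Snf2hko and 2 genes low in Snf2hko, are shown 5′ to 3′ on the gene's strand with CpG dinucleotides in capitals. They lie at chr12:111270846-111271095 (plus strand), chr2:148046970-148047219 (minus), chr4:147868720-147868969 (minus) and chr8:109737781-109738030 (minus), and hold 11, 6, 10 and 10 CpG.
Amn: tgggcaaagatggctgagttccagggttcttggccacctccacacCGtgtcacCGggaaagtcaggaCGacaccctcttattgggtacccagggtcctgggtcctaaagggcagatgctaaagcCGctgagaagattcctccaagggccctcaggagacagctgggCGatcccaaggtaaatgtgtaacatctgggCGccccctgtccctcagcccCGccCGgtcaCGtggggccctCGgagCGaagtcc
Foxa2: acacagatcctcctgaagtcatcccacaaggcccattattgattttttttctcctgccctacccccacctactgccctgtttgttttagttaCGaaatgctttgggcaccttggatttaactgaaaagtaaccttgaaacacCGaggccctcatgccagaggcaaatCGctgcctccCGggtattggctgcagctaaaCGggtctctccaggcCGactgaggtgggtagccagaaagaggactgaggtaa
Miip: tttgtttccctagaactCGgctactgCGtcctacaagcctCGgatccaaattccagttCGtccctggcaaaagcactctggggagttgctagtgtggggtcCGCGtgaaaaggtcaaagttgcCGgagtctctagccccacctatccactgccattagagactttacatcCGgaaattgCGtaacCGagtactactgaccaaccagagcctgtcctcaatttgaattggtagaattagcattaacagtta
Atxn1l: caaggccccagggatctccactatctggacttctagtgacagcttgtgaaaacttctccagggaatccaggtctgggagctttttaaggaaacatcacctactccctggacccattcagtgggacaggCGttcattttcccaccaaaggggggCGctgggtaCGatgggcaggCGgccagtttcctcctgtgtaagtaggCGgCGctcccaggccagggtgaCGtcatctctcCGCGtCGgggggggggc
Miip and Atxn1l hold the same number of CpG, below the median of all genes, and Amn lies close to them. Foxa2, the other gene high in Snf2hko, holds 6. These promoters are examples, too few to show whether CpG number separates high from low genes.

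The gene list with the largest median difference was that of primitive and visceral endoderm, the extraembryonic lineage set aside from the epiblast in the blastocyst. Of its 18 tested genes 17 were higher in Snf2hko than in Ino80ko (29.1% of all genes were) and 0 lower, with a median of 3.37. Against wild type 16 of the 18 were higher in Snf2hko (28.9% of all genes) with a median of 2.19, and 13 of the 18 were lower in Ino80ko (22.9% of all genes) with a median of -0.92. The lines thus lay on opposite sides of wild type for most of the list.

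The transcription factors of the lineage moved with its products. Gata6, a GATA factor needed to set up primitive endoderm, was at 98.7 and 96.1 CPM in Snf2hko, 10.5 and 10.4 in Ino80ko and 18.91 and 19.03 in wild type (3.22 ± 0.08, adjusted p = 2.87e-16). Gata4 was at 212 and 222, 21.5 and 17.5, and 57.9 and 49.7 CPM in the same order (3.48 ± 0.10, adjusted p = 1.67e-15). Sox17, an endoderm SOX factor, was at 75.2 and 74.4 CPM in Snf2hko, 4.37 and 4.57 in Ino80ko and 12.6 and 13.9 in wild type (4.06 ± 0.14). Foxa2, a pioneer factor of endoderm, was at 26.4 and 26.9, 2.03 and 1.83, and 5.92 and 5.86 CPM (3.78 ± 0.12). No library of one line overlapped the other for any of these factors, as was the case for 80.9% of all genes tested. Sox7 differed in form: at 59.5 and 58.1 CPM in Snf2hko it was raised, but Ino80ko (13.7 and 13.2) was not called against wild type (12.3 and 13.1, adjusted p = 0.59).

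The receptor genes followed. Cubn, which encodes the cubilin partner of amnionless, reached 713 and 691 CPM in Snf2hko from 43.4 and 37.8 in Ino80ko and 63.8 and 67.1 in wild type (4.11 ± 0.12). Dab2, an endocytic adaptor, was at 189 and 205, 19.6 and 18.7, and 38.4 and 37.8 CPM (3.36 ± 0.10). Basement membrane genes, whose products primitive endoderm secretes in quantity, changed in the same direction. Col4a2 was at 1235 and 1365 CPM in Snf2hko against 132 and 119 in Ino80ko, Lama1 at 5161 and 5384 against 880 and 745, and Lamb1 at 2805 and 2913 against 455 and 405. Sparc differed by less, with 2400 and 2543 CPM in Snf2hko and 671 and 628 in Ino80ko (1.93 ± 0.07). Apob was the exception among the called members: it was higher in Snf2hko than in Ino80ko (1.36 ± 0.30) yet lower than wild type in both lines. Apoa1 was not called, at 0.109 to 0.280 CPM in the 4 knockout-line libraries.

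**Figure D3:**
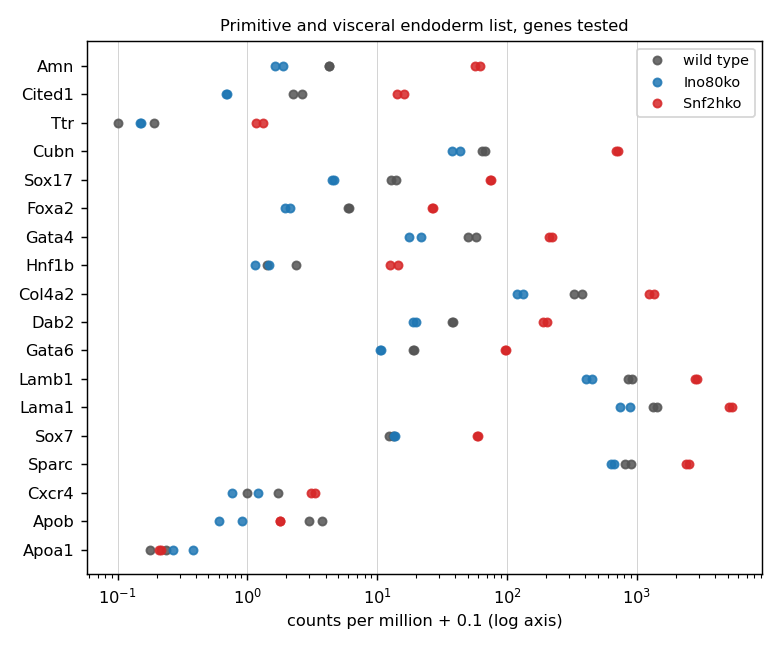
Each row is 1 of the 18 tested genes of the endoderm list, ordered by the difference between the lines, and each dot is 1 library, with CPM + 0.1 on a log axis. Red dots (Snf2hko) lie to the right of all others in 16 rows, and blue dots (Ino80ko) lie left of wild type in most, as for Gata6 at 10.5 and 10.4 CPM against 18.91 and 19.03.

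The summed level of the list was 13066 and 13673 CPM in Snf2hko, 2257 and 2007 in Ino80ko and 3851 and 3551 in wild type. Most of this sum in each group came from Lama1, Lamb1, Sparc and Col4a2, so it mainly gives the level of matrix genes. Of its 24 genes, Pdgfra, Hnf4a, Col4a1, Lamc1 and Foxq1 were listed at 0 in every library and 1 did not pass the filter. In bulk RNA, more cells of a type and more RNA per cell cannot be told apart. Wild-type levels of the list also differed between batches. The 4 DMSO libraries of wild type from the other batch were kept in DMSO for 1 h or 24 h, so time differed too. In all 4, 14 of the 18 genes were above both wild-type libraries of this batch. Examples were Cubn at 127 to 210 CPM and Amn at 11.9 to 14.3 CPM. Even so, both Snf2hko libraries were above all 6 wild-type libraries for 16 of the 18 genes, and both Ino80ko libraries below all 6 for 13. The part of the batch in the distance of either line from wild type was not tested, while the lines themselves were in 1 batch.

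Markers of the ES cell state were present in both lines. Pou5f1 (Oct4) was at 1614 and 1409 CPM in wild type, 1708 and 1621 in Ino80ko and 1369 and 1548 in Snf2hko, a difference between the lines of -0.19 ± 0.08 (adjusted p = 0.0442). Of 16 tested core pluripotency genes 11 were lower in Snf2hko than in Ino80ko (28.3% of all genes) and 1 higher, with a median of -0.35. Their summed level was 8983 and 9520 CPM in Snf2hko, 10965 and 10762 in Ino80ko and 12079 and 11177 in wild type. Sox2 was listed at 0 throughout.

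Within that list the sizes were modest beside the endoderm genes. Nanog, a core factor, was at 474 and 456 CPM in Snf2hko, 715 and 681 in Ino80ko and 561 and 543 in wild type, so the lines again lay on either side of wild type (-0.59 ± 0.06, adjusted p = 1.07e-07). Myc had the largest difference, at 66.8 and 59.1 CPM in Snf2hko against 163 and 132 in Ino80ko and 145 and 130 in wild type (-1.23 ± 0.12). Zfp42 (Rex1), at 460 to 508 CPM in the 4 libraries, was not called (-0.11 ± 0.07, adjusted p = 0.171). Mycn fell in both lines, from 324 and 338 CPM in wild type to 103 and 95.7 in Ino80ko and 123 and 129 in Snf2hko, and was the 1 core gene higher in Snf2hko (0.35 ± 0.09).

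The 16 tested naive pluripotency genes split, with 4 higher and 5 lower in Snf2hko and a median of 0.00. Of all genes 29.1% were higher and 28.3% lower. Klf5, a Krüppel-like factor, was raised in Ino80ko alone, at 1012 and 874 CPM against 387 and 426 in wild type and 434 and 375 in Snf2hko (-1.22 ± 0.12, adjusted p = 4.82e-07). Esrrb and Nr0b1 had the same direction, with differences of -0.54 ± 0.07 and -0.89 ± 0.09. Dppa3 (Stella) was low in both lines, at 0.890 and 0.834 CPM in Ino80ko and 1.58 and 1.24 in Snf2hko against 8.97 and 7.71 in wild type. It was still 1 of the 4 genes called higher in Snf2hko than in Ino80ko (0.71 ± 0.23). The others were Tcl1 (0.65 ± 0.10), Pecam1 (0.51 ± 0.11) and Fbxo15 (0.51 ± 0.07). Among formative and primed genes, 5 of 9 were higher in Snf2hko and 2 lower. Fgf5 had 0 counts in both Ino80ko libraries and 186 in Snf2hko, at least 56.2-fold higher in Snf2hko with 3 counts over the group taken as the floor, with wild type at 0.712 and 1.17 CPM.

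Other lineage lists had smaller medians, from 0.39 to 1.23. Mesoderm and primitive streak genes were higher in 4 of 15, a share near the 29.1% of all genes, and lower in 1, with summed levels of 37.6 and 38.8 CPM in Snf2hko and 26.2 and 26.0 in Ino80ko. Trophoblast genes were higher in 6 of 13 and lower in 3. Their summed level was 649 and 650 CPM in Snf2hko, 219 and 220 in Ino80ko and 332 and 309 in wild type. The list was led by the keratins Krt8 (351 and 350 CPM in Snf2hko, 48.6 and 49.7 in Ino80ko, 94.6 and 86.3 in wild type) and Krt18, which many epithelia including endoderm also express. Neural genes were higher in 5 of 10 and lower in 2, with summed levels of 548 and 523 CPM in Snf2hko and 578 and 537 in Ino80ko. Stmn2 alone made up 338 and 315 CPM of that sum in Snf2hko and 414 and 379 in Ino80ko. The lower neural sum in Snf2hko thus rests on this gene. Fibroblast and feeder genes were higher in 6 of 10 and lower in 3, with Col1a2, Col3a1, S100a4 and Twist2 listed at 0. Their summed level was 749 and 701 CPM in Snf2hko and 954 and 860 in Ino80ko. Fn1 alone made up 342 and 295 CPM of it in Snf2hko and 808 and 715 in Ino80ko, so the lower sum in Snf2hko rests on Fn1. Dkk1, a secreted Wnt inhibitor and Wnt target, was called against wild type only in Snf2hko, at 36.2 and 34.7 CPM in Snf2hko against 1.96 and 1.88 in Ino80ko and 1.60 and 2.04 in wild type (4.20 ± 0.11).

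Of 28 tested collagen, laminin and matrix genes 21 were higher in Snf2hko (29.1% of all genes were) and 3 lower (median 1.23). In Ino80ko 20 of them were below wild type (22.9% of all genes were). Lama1, Lamb1, Sparc and Col4a2 are counted both here and in the endoderm list. Thbs1, the thrombospondin 1 gene, was at 164 and 155 CPM in Snf2hko, 19.18 and 15.58 in Ino80ko and 50.1 and 52.8 in wild type (3.20 ± 0.09). P4ha2, which hydroxylates prolines in collagen, was at 340 and 358, 30.8 and 24.7, and 84.1 and 72.0 CPM in the same order (3.65 ± 0.10). Fn1, the fibronectin gene, went the other way, at 342 and 295 CPM in Snf2hko against 808 and 715 in Ino80ko (-1.26 ± 0.09). Signalling lists are set against 29.1% of all genes higher in Snf2hko and 28.3% lower. Nodal and Activin genes were higher in 4 of 18 and lower in 8, and FGF and ERK genes higher in 7 of 24 and lower in 13. Wnt targets were higher in 5 of 18 and lower in 6, near the shares of all genes. In the BMP pathway 10 of 16 genes were higher and 2 lower, with Bmp2 at 11.6 and 11.6 CPM in Snf2hko and 1.04 and 1.52 in Ino80ko (3.16 ± 0.16).

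Germline genes, many of them meiotic or piRNA pathway components expressed at low levels in ES cells, were mostly lower in Snf2hko. Of 24 tested, 17 were lower in Snf2hko (28.3% of all genes were) and 4 higher, with a median of -0.91 (median against wild type -1.07 in Snf2hko and -0.22 in Ino80ko). Tex19.1, a germline gene tied to control of transposons, was at 16.3 and 18.5 CPM in Snf2hko, 59.8 and 62.6 in Ino80ko and 86.0 and 81.3 in wild type (-1.82 ± 0.08, adjusted p = 1.28e-12). Stag3, a meiotic cohesin gene, was at 38.4 and 35.8 CPM in Snf2hko against 90.6 and 95.4 in Ino80ko and 77.5 and 88.8 in wild type (-1.33 ± 0.09). Dazl and Sycp3 were lower by similar or smaller amounts, -1.90 ± 0.18 and -1.18 ± 0.17.

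Some Rhox homeobox genes of the X chromosome had the opposite direction. Of 6 tested genes with Rhox symbols 3 were higher in Snf2hko than in Ino80ko (29.1% of all genes were) and 2 lower (28.3% of all genes were). Against wild type 2 were higher (28.9% of all genes were) and 4 lower in Snf2hko, and all 6 were lower in Ino80ko (22.9% of all genes were). Rhox5 was at 252 and 252 CPM in Snf2hko, 14.3 and 16.7 in Ino80ko and 107 and 85.6 in wild type (4.02 ± 0.12, adjusted p = 2.95e-15). Rhox6 and Rhox9 differed by 4.08 ± 0.17 and 3.48 ± 0.34, and related copies make the split of reads between Rhox genes uncertain. Unlike Rhox5 and Rhox6, Rhox9 was below wild type in Snf2hko too (-0.71, adjusted p = 0.012). Without the Rhox members, a division made after their values were seen, 17 of 21 germline genes were lower in Snf2hko and 1 higher. Of all genes 28.3% were lower.

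Hox genes, silent or nearly so in ES cells, were higher in Snf2hko for 16 of 21 tested (29.1% of all genes were) and lower for 0, at levels that stayed low. Hoxa11 had the smallest adjusted p of the list, at 3.501 and 3.962 CPM in Snf2hko against 0.178 and 0.191 in Ino80ko and 0.127 and 0.343 in wild type (4.32 ± 0.33, adjusted p = 1.82e-09). Of 13 tested genes of the 2-cell-like state 9 were higher in Snf2hko (29.1% of all genes were), most of them the copies Zscan4a to Zscan4f. Here the displaced line was mostly Ino80ko, with 9 of the 13 below wild type (22.9% of all genes were). Pramel6 differed, being above wild type in Snf2hko (1.77, adjusted p = 0.0032) and not called in Ino80ko (adjusted p = 0.42). Zscan4a was at 0.534 and 0.715 CPM in Ino80ko, 2.06 and 2.11 in Snf2hko and 2.72 and 2.20 in wild type, and reads of the near-identical Zscan4 copies cannot be assigned with certainty.

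Among imprinted genes, which are expressed from 1 parental copy, Nnat (neuronatin) had 0 counts in both Ino80ko libraries and 1560 in the Snf2hko libraries, at least 472-fold higher in Snf2hko, with 16.6 and 18.2 CPM there and 11.0 and 9.58 in wild type. Nnat lies inside another gene, and whether the counting used strand is not given. Peg3, a paternally expressed zinc finger gene, was at 162 and 158 CPM in Snf2hko and 164 and 173 in wild type but 44.7 and 44.2 in Ino80ko (1.85 ± 0.07, adjusted p = 4.07e-14). Over the list the directions were mixed, 7 of 18 higher (29.1% of all genes were) and 8 lower (28.3% of all genes were). Dnmt3l, the cofactor of the de novo DNA methyltransferases, was also low in Ino80ko, at 106 and 101 CPM against 274 and 282 in Snf2hko and 373 and 339 in wild type (1.43 ± 0.07). Dnmt3b followed, at 339 and 343 CPM in Ino80ko against 561 and 597 in Snf2hko.

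Genes with few or no counts in 1 line were counted more often in Ino80ko. Among the 2488 genes called with at least a 2-fold change, 42 had 0 counts in Ino80ko and 14 in Snf2hko, and 103 and 35 had 1 to 3. That pool was itself uneven, with 1562 genes higher and 926 lower in Snf2hko. Tnc, the tenascin C gene, had 2 counts in Ino80ko and 1404 in Snf2hko, a ratio of 637 with a 95% counting interval of 176 to 5262.

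Genes of the chromatin and genome maintenance machinery had smaller medians. Of 12 tested INO80 subunit genes 7 were lower in Snf2hko (28.3% of all genes were) and 0 higher (median -0.28). Ino80d was at 139 and 122 CPM in Snf2hko, 319 and 311 in Ino80ko and 171 and 190 in wild type (-1.27 ± 0.09, adjusted p = 3.94e-10). Of 10 genes of ISWI ATPases and partners 4 were lower and 2 higher, where 28.3% of all genes were lower and 29.1% higher. Cecr2, which encodes an ISWI partner, was at 79.9 and 79.8 CPM in Snf2hko, 169 and 163 in Ino80ko and 186 and 198 in wild type (-1.06 ± 0.07). Smarcc1, the BAF155 core subunit of SWI/SNF, was at 288 and 266 CPM in Snf2hko against 678 and 621 in Ino80ko and 539 and 539 in wild type (-1.23 ± 0.09). Phc1, a Polycomb subunit, was at 186 and 180 CPM in Snf2hko, 499 and 450 in Ino80ko and 485 and 469 in wild type (-1.38 ± 0.08). Bmi1, another Polycomb subunit, had the opposite direction, at 31.8 and 30.4 CPM in Snf2hko and 9.05 and 9.46 in Ino80ko (1.75 ± 0.10).

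DNA double-strand break repair genes were lower in Snf2hko for 14 of 23 and higher for 1 (median -0.24), and DNA replication genes lower for 13 of 27 and higher for 3 (median -0.14), where 28.3% of all genes were lower. Mcm4, a subunit of the replicative helicase, was at 445 and 450 CPM in Snf2hko, 755 and 735 in Ino80ko and 677 and 697 in wild type (-0.74 ± 0.06). Rad21, a cohesin subunit, was at 414 and 381 CPM in Snf2hko against 642 and 626 in Ino80ko and 474 and 501 in wild type (-0.67 ± 0.08).

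Metabolic and stress lists differed in direction, with 29.1% of all genes higher in Snf2hko and 28.3% lower as the background. ATF4 stress and amino acid genes were higher for 4 of 17 and lower for 7 (median -0.03), and metallothionein and metal genes higher for 1 of 7 and lower for 3 (median -0.54). Sterol synthesis and SREBP target genes were higher for 17 of 22 and lower for 3, with Cyp51 at 272 and 265 CPM in Snf2hko, 108 and 114 in Ino80ko and 96.6 and 93.3 in wild type (1.28 ± 0.07). For p53 targets 11 of 21 were higher and 3 lower, with Ccng1 (cyclin G1) at 763 and 724 CPM in Snf2hko against 303 and 328 in Ino80ko and 345 and 377 in wild type (1.24 ± 0.07). Interferon-stimulated genes were higher for 10 of 19 and lower for 3. Among them Tap1, a peptide transporter of antigen presentation, was at 24.9 and 28.1 CPM in Snf2hko, 3.15 and 4.22 in Ino80ko and 7.70 and 6.88 in wild type (2.84 ± 0.14). Nuclear-encoded respiratory chain genes were higher for 12 of 19 and lower for 1, with smaller sizes such as 0.57 ± 0.07 for Atp5a1.

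**Figure D4:**
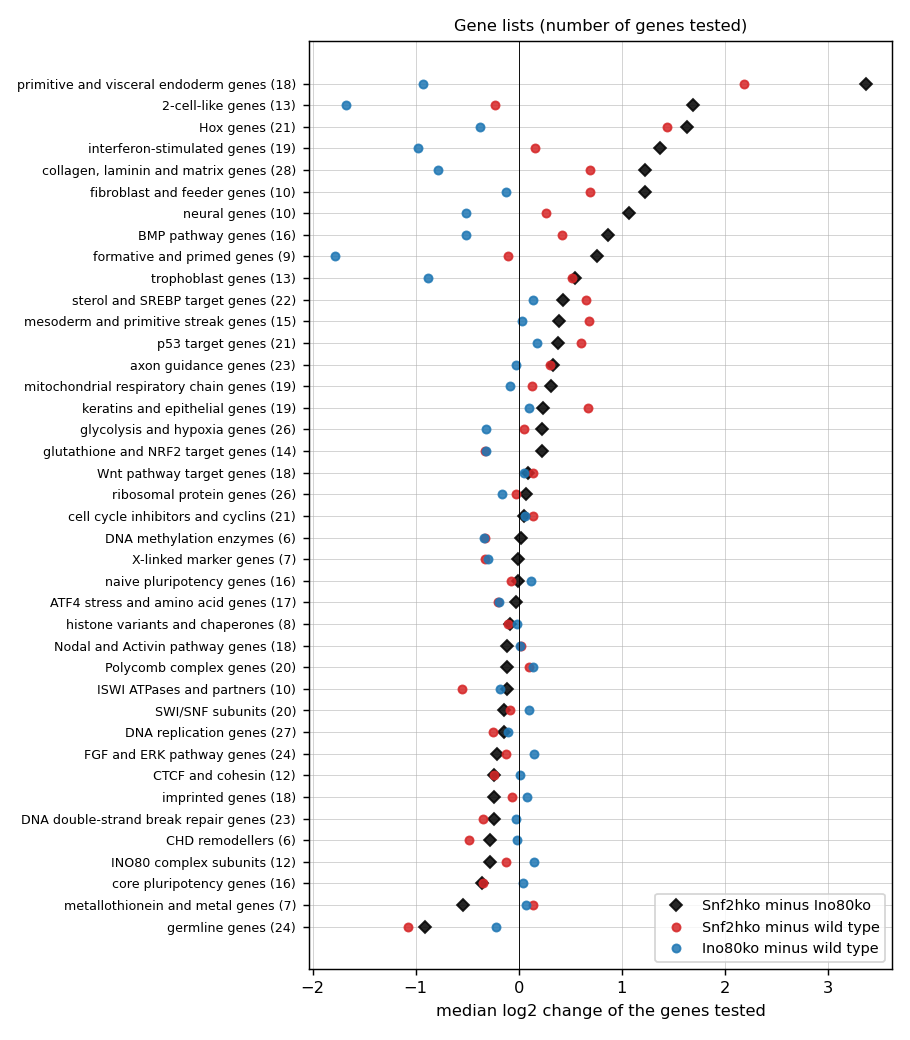
Each row is a gene list with its number of tested genes, the black diamond is the median log2 difference of Snf2hko from Ino80ko, and the red and blue dots are the medians of Snf2hko and Ino80ko against the same 2 wild-type libraries. The endoderm list lies farthest right at 3.37, with its dots on opposite sides of 0, and the germline list farthest left at -0.91.

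The differences were spread over the chromosomes. Medians of Snf2hko minus Ino80ko lay between -0.06 and 0.06 on each autosome and at 0.01 on X. Against wild type the X median was -0.18 in Snf2hko and -0.21 in Ino80ko, with a median of 0.00 over all genes in each line. Both X values use the same wild-type libraries, so they are not independent.

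The same lines were also sequenced after 24 h with 10 uM BRM014, an inhibitor of the SWI/SNF ATPases, in 4 libraries whose values enter none of the differences above, though they entered the filter on low counts and the shared estimate of the spread. These repeat the lines and not the making of them. There 8348 genes (63.7%) were called between the lines, and the differences with DMSO and with BRM014 had a Pearson r of 0.694 across 13114 genes, which are not independent replicates. Of the 1562 genes at least 2-fold higher in Snf2hko with DMSO, 1457 (93.3%) kept the sign with BRM014 and 1243 were called in that direction (33.0% of all genes were called higher), against 30 called in the other. Of the 926 lower genes, 834 (90.1%) kept the sign and 640 were called in that direction (30.7% of all genes were called lower), against 23 called in the other. Over all genes tested 75.4% had the same sign. A test of the change in the difference itself called 4460 genes (34.0%), 16.4% of all genes upward with BRM014 and 17.6% downward.

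The endoderm difference was as large in these libraries. With BRM014 16 of the 18 genes were higher in Snf2hko (33.0% of all genes were) with a median of 3.92. The difference for Amn was 6.22 and for Cubn 5.68. Miip and Atxn1l stayed lower, by -3.58 and -3.41. For core pluripotency genes the median was -0.79. All 21 tested Hox genes were higher with a median of 3.62, but the filter on low counts also used the BRM014 libraries. Hoxb8, Hoxd1 and Hoxb3 were at no more than 0.0686, 0.183 and 0.229 CPM in any DMSO library. They were thus tested only because of their levels with BRM014, so the count and median of the Hox list are partly set by the filter.

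**Figure D5:**
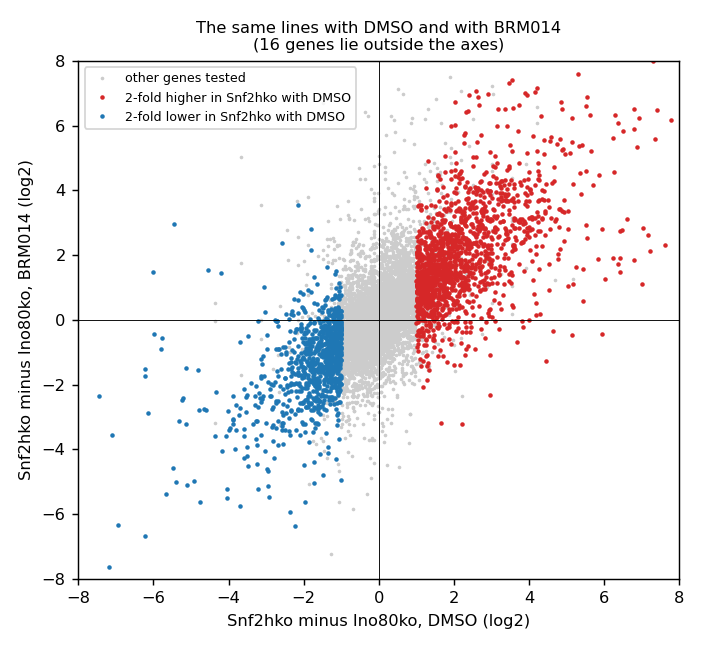
Each point is a gene, with the log2 difference of Snf2hko from Ino80ko in DMSO on the horizontal axis and in BRM014 on the vertical axis, from libraries that do not overlap. Red and blue points are the 1562 genes higher and 926 genes lower by at least 2-fold with DMSO. Most red points (93.3%) lie above 0 and most blue points (90.1%) below it.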

How the data were processed

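Stranded total RNA libraries were compared by label: Snf2hko and Ino80ko with DMSO for 24 h, 2 libraries each, with 2 of wild type from the same batch. The deposited values are raw counts per gene, which the authors made with bcl2fastq 2.17 and STAR on GRCm38 (mm10), per the submitters' processing notes. The counting program, annotation and strand setting are in none of the labels or notes and are thus not given in the sources used here. In all, the table held 55385 genes, of which 55144 identifiers were found in GENCODE M21, and 0 count columns were unmapped. Counts were fitted with edgeR 4.0.16 in R 4.3.3 over the 12 libraries of the batch (6 groups of 2, 6 residual degrees of freedom): genes with low counts were removed by filterByExpr (count 10, total 15), libraries were scaled by TMM (factors of 0.948 to 1.041), and robust quasi-likelihood tests were adjusted by Benjamini and Hochberg over all 13114 genes. CPM are TMM-scaled, except for wild type of the other batch, which was scaled to library totals. The fit was also run on simulated counts, and no result given here rests on that run. No pair of replicates was identical: chi-square per degree of freedom was 7.4 to 15.7 in the 3 groups.

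Genes were named by rule: the ATPase genes, the 15 largest differences in each direction among called, at least 2-fold changed, non-overlapping genes with a mean log2 CPM of at least 2 and no predicted symbol, and up to 4 called members of each of 40 lists with the smallest adjusted p. Further members of the endoderm, pluripotency, germline, matrix, 2-cell-like and Hox lists were named after their values were seen. Members and lists were chosen with earlier results of these data known. The CTCF and cohesin list also held Nr3c1, which belongs to neither. The result for 1 gene that the rule names is not reported here. Bounds and counting intervals cover counting error only. Alternatives were DESeq2 1.42.0, its size factors, no filter, fewer libraries, each library left out, and a replicate block.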

Additional observations from a re-analysis of the deposited data

Results flagged for a closer look

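The difference between the lines itself changed with BRM014 for 4460 genes (34.0% of those tested) in a test of that change within the edgeR fit, 2154 upward and 2306 downward. Of the genes named by rule, 4 had differences of opposite sign that were each called. Stc2, a secreted stress-responsive glycoprotein gene, was higher in Snf2hko by 1.67 with DMSO and lower (-0.61) with BRM014, a change of -2.28. Epha2, an ephrin receptor gene, went from -0.79 to 0.70, a change of 1.49. E2f1, a cell cycle transcription factor gene, went from -0.75 to 0.22, a change of 0.97. Gsta4, a glutathione transferase gene, went from 0.40 to -0.25, a change of -0.65.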

How the results depend on the processing

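Each count of called genes stayed within 1.5 times its value in all 147 comparisons of a count with an alternative. With a library left out, 6249 to 7696 genes were called between the lines and 2226 to 2521 with a 2-fold change, 6042 to 7377 in Snf2hko and 4301 to 5847 in Ino80ko against wild type, and 7294 to 8341 with BRM014. The endoderm count was 17 in each of these fits. The share of higher genes among those called was 50.6% to 52.1% over the alternatives. Of 2366 values of named genes, 2345 kept direction and call, 19 lost the call (Lars2, H3f3a, H3f3b, Asf1b, Lhx1, Stmn2 and Rpl14), and 2 changed sign. Both were Ino80, uncalled throughout, at -0.0131 without Ino80ko replicate 2 and -0.0119 without Snf2hko replicate 1, in a range of -0.0131 to 0.0587 with a library left out. With the replicate number as a block in the 8 knockout-line libraries 7736 genes were called between the lines, against 7731 without it (8535 and 8500 with BRM014). The samples share only a number, so the pairing was not used: deviations of same-numbered libraries had a correlation of -0.04 between the lines with DMSO, and of -0.157 to 0.456 over the 6 pairs of knockout-line groups. Differences under about 0.18 log2 were mostly not detectable with 2 libraries a group.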

Other observations

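Several signalling genes not described above were higher in Ino80ko. Dusp6, an ERK phosphatase that ERK signalling induces, was at 286 and 304 CPM in Ino80ko against 151 and 152 in Snf2hko and 136 and 132 in wild type (-0.96 ± 0.07, adjusted p = 2.38e-09). Etv4, an ETS factor downstream of FGF, was at 388 and 370 CPM in Ino80ko, 221 and 237 in Snf2hko and 187 and 167 in wild type (-0.73 ± 0.07), and was above wild type in both lines. Inhbb, the activin beta B subunit, and Smad7, an inhibitory SMAD, were also higher in Ino80ko, with differences of -0.60 ± 0.06 and -0.73 ± 0.08, and Inhbb too was above wild type in both lines. Dusp4, a related phosphatase, went the other way, at 48.3 and 50.2 CPM in Snf2hko and 10.3 and 10.2 in Ino80ko. Over the whole FGF and ERK list 13 of 24 genes were lower in Snf2hko (28.3% of all genes were) and 7 higher (29.1% of all genes were). The median was -0.21.

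Mt2, a metallothionein, was at 283 and 272 CPM in Ino80ko, 153 and 154 in Snf2hko and 101 and 102 in wild type, above wild type in both lines. Axin2, a Wnt feedback gene, was also above wild type (11.2 and 10.8 CPM) in both, at 22.7 and 20.6 in Ino80ko and 32.2 and 33.9 in Snf2hko.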
